A study of Schizosaccharomyces pombe with 6 samples.

Results

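The 49 genes described here act in mating, meiosis and sporulation of the fission yeast Schizosaccharomyces pombe. They were chosen by name from the 6952 genes of the count table: every rec and spo gene with a number, the 3 mfm genes, and 23 further genes with established roles in these steps. By role they fell into 11 pheromone and mating genes, 6 genes of meiotic entry, 17 genes of recombination and meiotic chromosome movement, and 15 spore genes.

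When fission yeast runs short of nutrients, cells of the mating types M and P exchange peptide pheromones, fuse, and pass through meiosis to form ascospores. The HMG-box transcription factor Ste11 switches on the pheromone genes and mei2, whose RNA-binding product starts meiosis. Premeiotic genes such as rec8 are then transcribed by the factor MBF, and later genes by the forkhead factor Mei4. In growing cells these programmes are kept low, in part because the protein Mmi1 sends meiotic transcripts to decay. Haploid cells of a single mating type, such as those used here, starve without mating.

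RNA was taken from stationary-phase cultures at day 6 of chronological ageing, when cells no longer divide. The 3 aal1-pOE cultures overexpressed aal1, a long non-coding RNA, from the P41nmt1 promoter on a plasmid, a promoter that thiamine represses, and 3 evc cultures carried the empty vector. Both groups were transformants of the same h- strain with the leu1-32 allele, were grown in the minimal medium EMMG, and had their own chromosomal copy of aal1. The comparison addressed how an excess of aal1 changes the transcripts of non-dividing cells.

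Library totals lay between 5839863 and 13164975 counts. The overexpressed gene itself reached 54, 141 and 58 counts in aal1-pOE replicates 1, 2 and 3, against 4, 2 and 4 counts in evc (log2 fold change, log2FC, aal1-pOE over evc, 3.39 ± 0.58 SE, adjusted p = 0.0106, edgeR), so every library matched its label. The library of aal1-pOE replicate 2 stood apart: it had a median of 666 counts per gene, where the other aal1-pOE libraries had 200 and 131 and the evc libraries 88 to 119. Levels are therefore given as CPM, counts per 1000000 counts of the library, after scaling by TMM, which balances the libraries on the bulk of their genes. Over all genes the median log2FC was 0.085 with TMM and 0.80 with library totals alone, a shift of 0.72, and each direction named in the text is relative to the TMM scale. Without aal1-pOE replicate 2 the median over all genes was 0.023.

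Sequences were read from the RefSeq assembly ASM294v3, whose coordinates may differ from those of the PomBase release that the authors used. The first set shows the Ste11 box, TTCTTTGTT, because Ste11 acts through it and ste11 was among the genes whose level fell. In the window from 250 bases before to 50 bases after the annotated start, searched on both strands, 9 of the 49 genes held a box (18.4%), against 2.0% of 5112 promoters of coding genes. Of those 9 genes, 5 were pheromone genes, 3 were meiotic entry genes and 1, dhc1, encodes a dynein. Each line gives the gene, the place and strand of the box, and the box in capitals with 10 bases on either side. Only some of the boxes are listed. For mfm1, mfm3 and ste6 the box lay on the strand opposite to that of the gene.
ste11, chrII:3983239-3983267, plus strand: aaagttgaatTTCTTTGTTtgattttcat
mei2, chrI:4515145-4515173, minus strand: attttaaagtTTCTTTGTTttacaaaccc
mei2, chrI:4515167-4515195, minus strand: gccgaccgatTTCTTTGTTcctattttaa
mfm1, chrI:4916926-4916954, minus strand: aaactgagacTTCTTTGTTggtcggaccc
mfm3, chrII:700190-700218, minus strand: aatctgagacTTCTTTGTTggttgggcct
ste6, chrIII:1765896-1765924, minus strand: ttttgggaatTTCTTTGTTtactaacaat
The box of ste11 itself ended 118 bases before the start of its own gene.

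The second set shows the MCB box, ACGCGT, the element that MBF binds. It stood in 12 of the 49 windows (24.5%), against 3.25% of all promoters, and 11 of the 12 belonged to recombination genes. The other was that of spo9. The called gene hop1, the cohesin gene rec8 and meu13 each held 2 copies. Boxes of hop1, rec8, rec11 and rec6 are shown, in capitals.
hop1, chrII:3472228-3472253, plus strand: tacacttaagACGCGTtcgACGCGTt
rec8, chrII:2568879-2568904, plus strand: tataattttgACGCGTttaataagct
rec8, chrII:2568908-2568933, plus strand: tggtgaactaACGCGTtcctgtcttt
rec11, chrIII:1227122-1227147, minus strand: ccgagtaaaaACGCGTtcttattcat
rec6, chrII:1650218-1650243, minus strand: caataacacgACGCGTatattccaac
The looser Mei4 box, GTAAANA, was found in 29 windows (59.2%), against 45.8% of all promoters. It overlapped 4 of the 14 Ste11 boxes, and 2 of its 47 matches overlapped an MCB box. A match shows that the letters are present, not that a factor binds there.

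In the edgeR quasi-likelihood test with Benjamini-Hochberg adjustment over all genes tested, 44 of the 49 genes passed the filter on low counts, above 1 CPM in at least 3 libraries. In aal1-pOE, 1 gene rose and 3 fell at an adjusted p of at most 0.05. The gene that rose was spo7, needed for the forespore membrane. Those that fell were ste11, hop1, which encodes an axis protein of meiotic chromosomes, and map3, which encodes the M-factor receptor. Over all 5823 genes tested, 1.36% were called higher and 4.64% lower. The 5 genes that did not pass the filter were mfm3, dmc1, rec15, rec27 and spo4. Since RNA came from whole cultures, fewer cells of a kind and less RNA per cell cannot be told apart.

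The 40 remaining genes were not called. Of the 44 tested, 31 had a positive log2FC, against 54.0% of all genes, and their median was 0.40, against 0.085 over all genes. Much of that difference moved with one library. In aal1-pOE replicate 2 the level was the highest of the 6 libraries for 27 of the 44 genes (61.4%), against 39.3% of all genes. Without that library 40 genes were tested, their median was 0.126, and 25 were positive. The groups did not overlap for 9 genes above evc and 3 below it, where 18.4% and 19.1% of all genes did not overlap in these directions. Together the 49 genes took 0.232, 0.371 and 0.272% of the counts of aal1-pOE replicates 1, 2 and 3, against 0.237, 0.198 and 0.218% in evc. These shares are on library totals, on which the median log2FC was 1.22 for the 44 tested genes and 0.80 over all genes.

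**Figure D1:**
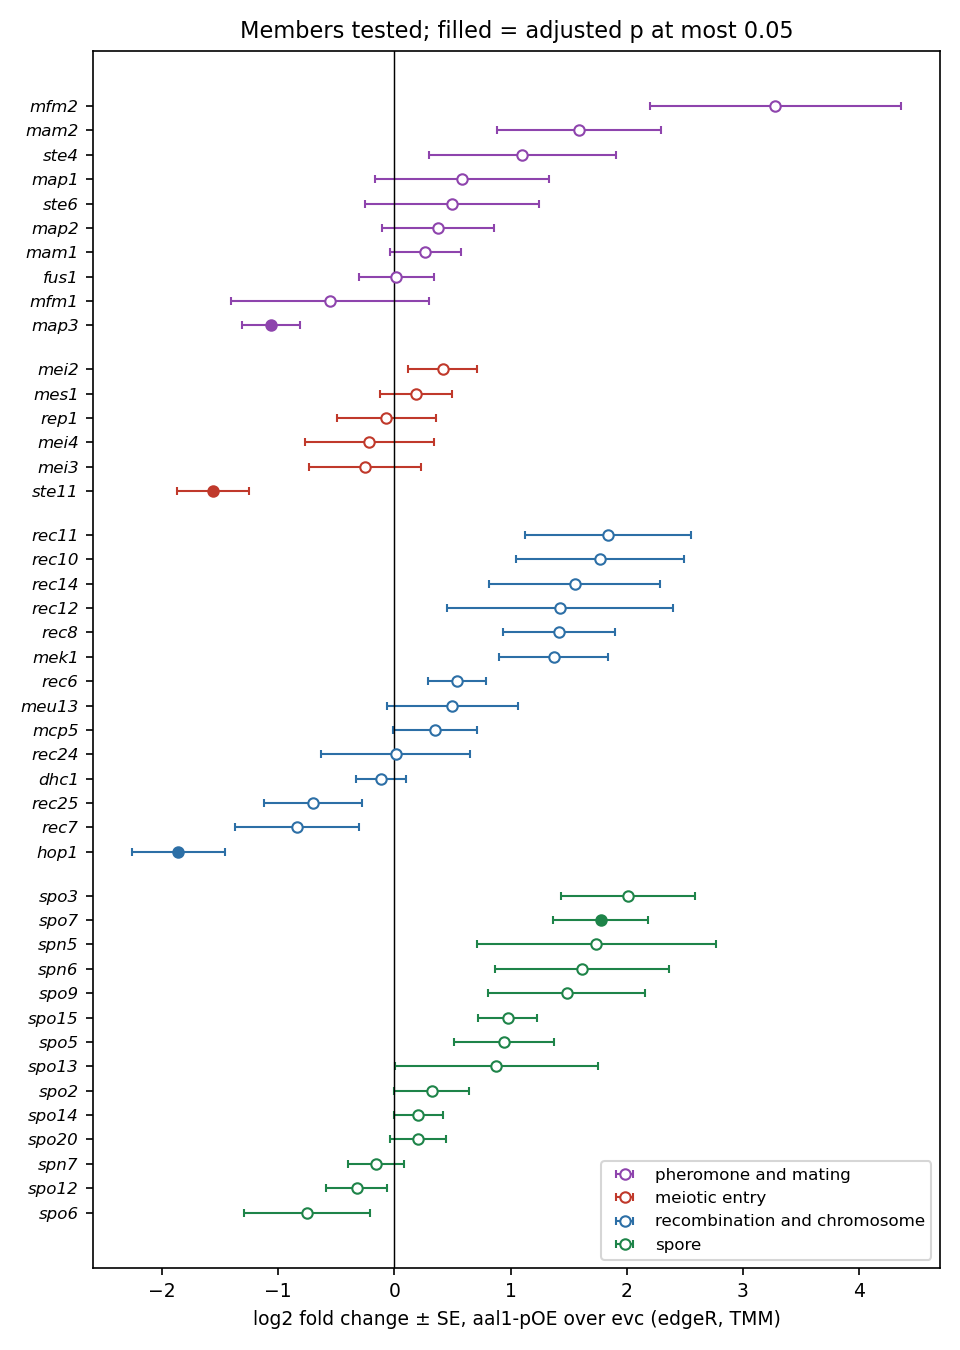
Log2FC of each of the 44 tested genes (x axis, aal1-pOE over evc, TMM scale, bars ± SE from 3 libraries a side), ordered within 4 roles by colour; filled points have an adjusted p of at most 0.05. The filled points are map3 at -1.06, ste11 at -1.56, hop1 at -1.86 and spo7 at 1.78.

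The count of calls depended on single libraries. Without evc replicate 2, and likewise without evc replicate 3, 0 genes rose and 0 fell among the 49, and the counts over all genes were then 1 higher, with 81 and 86 lower. Without aal1-pOE replicate 1 only the call of spo7 was left. Without aal1-pOE replicate 2, spo15 was called higher beside spo7, and the 3 genes that fell kept their calls. In that setting 4.42% of all genes were called higher and 9.09% lower. With library totals in place of TMM, spo7 and spo15 were called higher and 0 genes lower.

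**Figure D2:**
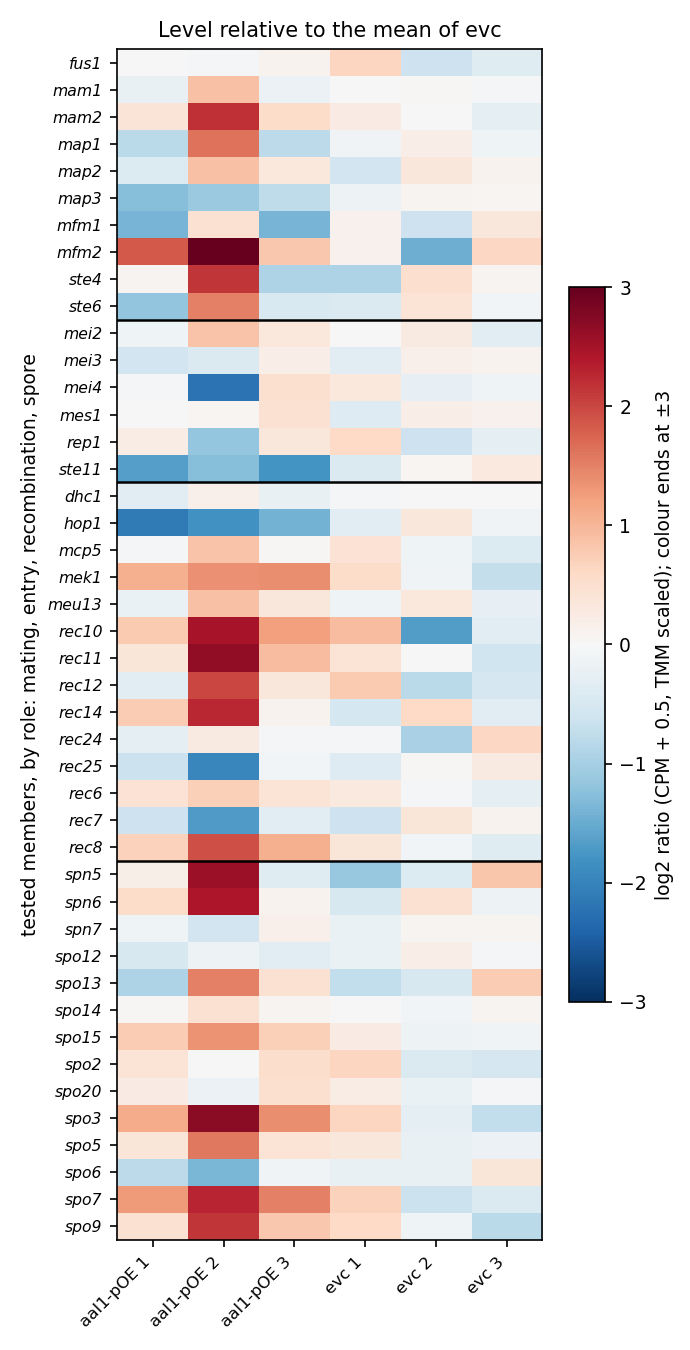
Level of each tested gene (rows, by role) in each of the 6 libraries (columns) as a log2 ratio to the evc mean, computed on CPM + 0.5 after TMM scaling, with the colour scale ending at 3 in either direction. The column of aal1-pOE replicate 2 holds most of the dark red cells, while ste11, hop1 and map3 are blue in all 3 aal1-pOE columns.

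Of the 11 pheromone and mating genes, 10 were tested, map3 fell and 0 rose in edgeR's quasi-likelihood test. At an unadjusted p under 0.05, 1 gene had a positive and 1 a negative log2FC, where over all genes 14.6% were positive and 12.5% negative at that limit. Over all genes the likelihood ratio test called 6.82% higher and 8.11% lower, DESeq2 6.75% and 8.8%, and limma-voom 0.326% and 4.04%. The likelihood ratio test and DESeq2 each called mfm2 higher as well, and limma-voom called only map3. The median log2FC of the group was 0.43, and -0.18 without aal1-pOE replicate 2, in which 8 of the 10 genes had their highest level.

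The M-factor is a short lipid-modified peptide with 3 genes, mfm1, mfm2 and mfm3. The codons of the secreted peptide are shown because such shared stretches bear on how reads are assigned. Capitals mark the 3 bases at which they differ, and each stretch is joined across an intron.
mfm1, chrI:4917189-4917286, plus strand: tatacCccCaaggttccttaCatgtgt
mfm2, chrI:2913020-2913088, minus strand: tatacTccAaaggttccttaTatgtgt
mfm3, chrII:700451-700544, plus strand: tatacCccCaaggttccttaCatgtgt
The 9 codons encode 1 and the same peptide in all 3 genes. Whether reads from them mapped to more than one gene was not tested.

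The gene mfm2 had 4.44, 19.6 and 1.89 CPM in aal1-pOE replicates 1, 2 and 3, against 1.01, 0 and 1.61 CPM in evc. All 3 aal1-pOE libraries lay above all 3 evc libraries, replicate 3 narrowly. Its log2FC was 3.28 ± 1.08 (SE, adjusted p = 0.0967), the largest value of the 44 genes, and 1.84 without aal1-pOE replicate 2. The gene mfm1 had 0.317, 2.46 and 0.315 CPM in aal1-pOE, against 1.86, 0.897 and 2.21 CPM in evc. Its groups overlapped through aal1-pOE replicate 2 alone, and its log2FC of -0.55 ± 0.85 (SE, adjusted p = 0.68) became 0.40 with library totals. The gene mfm3 was counted 6, 16 and 3 times in aal1-pOE, against 10, 0 and 5 times in evc, too low to be tested.

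M cells export the M-factor through the transporter Mam1 and sense the P-factor with the receptor Mam2. The level of mam1 was 55.3, 119 and 56.6 CPM in aal1-pOE, against 64.8, 65.5 and 62.0 CPM in evc. Replicate 2 was the highest of all 6 libraries while the other aal1-pOE replicates were the lowest, and the log2FC was 0.27 ± 0.31 (SE, adjusted p = 0.575). The receptor gene mam2 had 1.90, 7.92 and 2.21 CPM in aal1-pOE, against 1.69, 1.35 and 1.01 CPM in evc. The groups did not overlap, with a log2FC of 1.59 ± 0.71 (SE, adjusted p = 0.185) that came to 0.60 without aal1-pOE replicate 2.

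Genes of the opposite mating type were also counted in these h- cells, which are of the M type. They were map3, the M-factor receptor, map2, the P-factor precursor, and map1, the MADS-box factor that drives P-specific genes. The level of map3 was 17.1, 19.1 and 24.6 CPM in aal1-pOE, against 38.0, 44.4 and 44.3 CPM in evc, or 20.3 ± 3.87 and 42.2 ± 3.69 CPM (SD, n = 3 each). On the TMM scale every aal1-pOE library lay below every evc library, and replicate 2 was not the extreme of its group. Divided by library totals alone the groups overlapped, at 18.39, 34.26 and 25.45 CPM in aal1-pOE, against 32.25, 33.9 and 34.14 CPM in evc. On that scale aal1-pOE replicate 2 was the highest library of all. The log2FC was -1.06 ± 0.25 (SE, adjusted p = 0.0379, edgeR). The call was lost without aal1-pOE replicate 1 (adjusted p = 0.108) and without evc replicate 1, 2 or 3 (0.0556, 0.203 and 0.207), and with library totals (log2FC -0.36, adjusted p = 0.452).

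Neither of the other P genes was called. The level of map1 was 2.33, 14.7 and 2.36 CPM in aal1-pOE, against 4.05, 5.16 and 4.03 CPM in evc, so that 2 aal1-pOE libraries lay below every evc library and replicate 2 above. Its log2FC was 0.58 ± 0.75 (SE, adjusted p = 0.617), and -0.88 without replicate 2. The level of map2 was 5.92, 15.2 and 10.1 CPM in aal1-pOE, against 5.23, 10.3 and 8.65 CPM in evc. The groups of map2 overlapped (log2FC 0.38 ± 0.48 SE, adjusted p = 0.617), and the value was 0.0005 without replicate 2.

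The M cassette at mat1 sets the mating type of an h- strain. The cassette gene mat1-Mc had 34, 18 and 15 counts in aal1-pOE, against 15, 32 and 27 counts in evc, and mat1-Mi had 0, 8 and 0 counts in aal1-pOE, against 0 in every evc library. The near-identical silent copies mat3-Mc and mat3-Mi were listed at 0 in all 6 libraries, and counts between such copies are uncertain.

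Behind the receptors, Ste6 activates the GTPase Ras1, Ste4 links Ras1 to the MAP kinase cascade, and the formin Fus1 builds the actin focus at which cells fuse. The level of ste4 was 5.28, 23.4 and 2.36 CPM in aal1-pOE, against 2.36, 7.18 and 5.23 CPM in evc. That of ste6 was 1.90, 15.2 and 3.47 CPM in aal1-pOE, against 3.54, 6.73 and 4.63 CPM in evc. Both genes were high in aal1-pOE replicate 2 only, their groups overlapped, and their log2FC values of 1.10 ± 0.80 and 0.49 ± 0.75 (SE, adjusted p = 0.378 and 0.676) came to -0.29 and -0.88 without that library. The level of fus1 was 59.4, 57.5 and 63.8 CPM in aal1-pOE, against 93.6, 38.4 and 45.9 CPM in evc. Its aal1-pOE libraries lay close together inside the wider evc range (log2FC 0.02 ± 0.32 SE, adjusted p = 0.973).

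All 6 genes of meiotic entry were tested, ste11 fell and 0 rose in edgeR's quasi-likelihood test. Unadjusted p-values under 0.05 were found for 0 positive and 1 negative values, against 14.6% and 12.5% of all genes. The likelihood ratio test, DESeq2 and limma-voom each called ste11 and no other of the 6, where they called 8.11, 8.8 and 4.04% of all genes lower. The median log2FC was -0.14, 0.45 with library totals and 0.19 with aal1-pOE replicate 2 left out, which was the highest library for 1 of the 6 genes.

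The level of ste11 was 252, 331 and 229 CPM in the aal1-pOE libraries, against 588, 830 and 975 CPM in evc. All aal1-pOE libraries lay below all evc libraries, and the means were 271 ± 53.8 and 798 ± 196 CPM (SD, n = 3 each). The log2FC was -1.56 ± 0.31 (SE, adjusted p = 0.0190, edgeR). It was -1.71 without aal1-pOE replicate 2 (adjusted p = 0.00638). The call was lost without aal1-pOE replicate 1 or 3 (adjusted p = 0.0799 and 0.0523), without evc replicate 2 or 3 (0.111 and 0.127), and with library totals (log2FC -0.77, adjusted p = 0.122). On counts divided by library totals alone the groups of ste11 overlapped.

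The genes with a Ste11 box took both directions. The 8 tested genes with a Ste11 box in the window, ste11 included, had log2FC values from -1.56 to 1.10, of which 4 were positive and 4 negative, with a median of 0.17 (-0.29 without aal1-pOE replicate 2). Among them was mei2, with 34.1, 68.1 and 46.7 CPM in aal1-pOE, against 37.5, 45.3 and 29.2 CPM in evc. The groups of mei2 overlapped, with a log2FC of 0.42 ± 0.30 (SE, adjusted p = 0.370).

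The forkhead factor gene mei4 had the highest level per length of the 44 genes, 271 CPM per kb of annotated gene in aal1-pOE and 315 CPM per kb in evc. Its levels were 678, 151 and 977 CPM in aal1-pOE, against 869, 591 and 635 CPM in evc. Here aal1-pOE replicate 2 was the lowest of all 6 libraries, and the groups overlapped. The log2FC was -0.22 ± 0.56 (SE, adjusted p = 0.814), and 0.26 without that library. Of the mei4 gene, 115 bases (5.18%) lay in cdk9 on the same strand, where reads cannot be given to one gene.

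None of the other entry genes was called. Rep1, an activator of MBF, had 84.2, 32.3 and 91.3 CPM for its gene in aal1-pOE, against 110, 46.4 and 60.4 CPM in evc, with a log2FC of -0.07 ± 0.43 (SE, adjusted p = 0.921). The level of mei3, whose product inhibits the kinase Pat1 and so frees Mei2, was 3.59, 4.02 and 6.46 CPM in aal1-pOE, against 4.39, 6.28 and 6.04 CPM in evc (-0.25 ± 0.48 SE, adjusted p = 0.744). The gene mes1, whose product restrains the anaphase-promoting complex so that cells enter meiosis II, had 17.5, 18.3 and 24.1 CPM in aal1-pOE, against 13.3, 20.2 and 19.1 CPM in evc (0.19 ± 0.31 SE, adjusted p = 0.704). The groups of all 3 genes overlapped, and with library totals the values of rep1 and mei3 were positive, at 0.47 and 0.43.

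**Figure D3:**
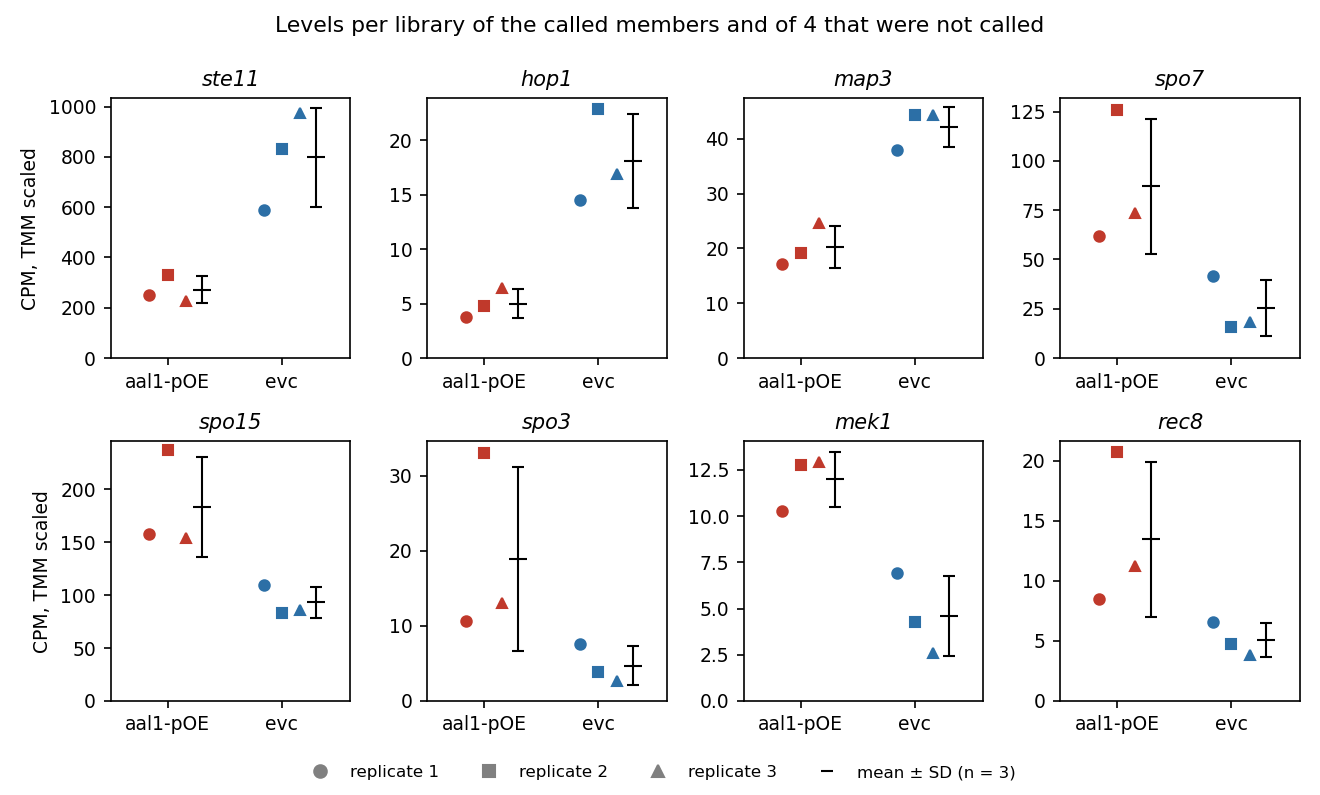
CPM after TMM scaling in each library for the 4 called genes (top row) and for spo15, spo3, mek1 and rec8, which were not called (bottom row); marker shapes give the replicate, bars the mean ± SD of 3 libraries, and each panel has its own axis from 0. In ste11, hop1 and map3 all aal1-pOE points lie below all evc points, and in the other 5 panels all lie above.

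Of the 17 recombination and chromosome genes, 14 were tested, hop1 fell and 0 rose in edgeR's quasi-likelihood test. With an unadjusted p under 0.05, 4 had a positive and 1 a negative log2FC, against 14.6% and 12.5% of all genes. In the likelihood ratio test rec8 was called higher, DESeq2 called rec8 and mek1 higher, and both, with limma-voom, called hop1 lower. Over all genes the likelihood ratio test, DESeq2 and limma-voom called 6.82, 6.75 and 0.326% higher and 8.11, 8.8 and 4.04% lower. The group median was 0.52 with all libraries and 0.125 without aal1-pOE replicate 2.

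Hop1 belongs to the linear elements, the axes along which fission yeast chromosomes recombine in place of a full synaptonemal complex. Its gene had 3.80, 4.74 and 6.46 CPM in aal1-pOE, against 14.5, 22.9 and 16.9 CPM in evc. Every aal1-pOE library lay below every evc library, also on library totals, and the means were 5.003 ± 1.35 and 18.1 ± 4.32 CPM (SD, n = 3 each). The log2FC was -1.86 ± 0.40 (SE, adjusted p = 0.0265, edgeR), or -1.82 when aal1-pOE replicate 2 was left out (adjusted p = 0.0159). The call was lost without aal1-pOE replicate 1 (adjusted p = 0.0839), without evc replicate 2 or 3 (0.188 and 0.134), and with library totals (log2FC -1.15, adjusted p = 0.127).

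The axis partners of Hop1 gave other values. The level of rec10, the core of the linear elements, was 8.45, 28.2 and 11.7 CPM in aal1-pOE, against 9.28, 1.12 and 3.62 CPM in evc. Its groups overlapped through evc replicate 1 (log2FC 1.77 ± 0.72 SE, adjusted p = 0.156). The level of mek1, the meiotic checkpoint kinase that acts with Hop1, was 10.3, 12.8 and 12.9 CPM in aal1-pOE, against 6.92, 4.26 and 2.62 CPM in evc. Its aal1-pOE libraries lay close together above evc, with a log2FC of 1.37 ± 0.47 (SE, adjusted p = 0.105) that was 1.32 without aal1-pOE replicate 2. The linear element gene rec25 had the highest level per length of this group, 56.2 CPM per kb in aal1-pOE and 91.0 CPM per kb in evc. It had 153, 61.1 and 226 CPM in aal1-pOE, against 182, 244 and 287 CPM in evc, an overlap with replicate 2 the lowest (log2FC -0.70 ± 0.42 SE, adjusted p = 0.301).

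Rec8 is the meiotic kleisin, the ring subunit of cohesin that holds sister chromatids in meiosis, and Rec11 is its arm-specific partner. The level of rec8 was 8.45, 20.7 and 11.2 CPM in aal1-pOE, against 6.58, 4.71 and 3.82 CPM in evc. The groups did not overlap, and the log2FC was 1.42 ± 0.48 (SE, adjusted p = 0.103) with all libraries and 0.96 without aal1-pOE replicate 2 (adjusted p = 0.0959). The level of rec11 was 3.59, 19.5 and 5.52 CPM in aal1-pOE, against 3.71, 2.69 and 1.61 CPM in evc. One evc library reached into the aal1-pOE range, and the log2FC of 1.84 ± 0.71 (SE, adjusted p = 0.140) came to 0.75 without replicate 2.

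Double-strand breaks are made by Rec12, the Spo11 homologue, with Rec6, Rec7, Rec14, Rec15 and Rec24 among its partners, and Dmc1 and Meu13 act in the strand exchange that follows. Of these, rec6, rec7, rec12, rec14, rec24 and meu13 were tested and none was called, with log2FC values from -0.84 in rec7 to 1.55 in rec14. The counts of dmc1 were 7, 16 and 0 in aal1-pOE, against 3, 2 and 3 in evc. Those of rec15 were 0 in each aal1-pOE library and 1, 2 and 0 in evc, at or under the floor of 3 counts over a group, so that no fold is given. The counts of rec27, a linear element gene, were 3, 32 and 1 in aal1-pOE and 0 in every evc library. Against the floor of 3 counts over the evc group this was at least 4.67-fold higher in pooled CPM after TMM scaling, or at least 8.23-fold with library totals. It rested on replicate 2, without which 4 counts were left.

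The dynein heavy chain gene dhc1, whose product drives the back-and-forth nuclear movement that pairs chromosomes, had 128, 179 and 136 CPM in aal1-pOE, against 157, 162 and 161 CPM in evc. The evc libraries lay within the aal1-pOE range (log2FC -0.12 ± 0.22 SE, adjusted p = 0.742). The gene mcp5, whose product anchors dynein at the cell cortex and which the annotation lists as num1, had a log2FC of 0.35 ± 0.36 (SE, adjusted p = 0.534) and -0.0083 without aal1-pOE replicate 2. The 10 tested genes of all roles with an MCB box had log2FC values from -1.86 in hop1 to 1.84 in rec11, with 7 positive and a median of 0.98, or 0.45 without that library.

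Of the 15 spore genes, 14 were tested, spo7 rose and 0 fell in edgeR's quasi-likelihood test. At an unadjusted p under 0.05, 3 had a positive and 0 a negative log2FC, against 14.6% and 12.5% of all genes. The likelihood ratio test and DESeq2 each called spo7, spo15 and spo3 higher and 0 lower, and limma-voom called 0. Over all genes these tests called 6.82, 6.75 and 0.326% higher. The group had the highest median of the 4 roles, 0.91, and 0.44 without aal1-pOE replicate 2, over 12 genes. There spo7 and spo15 were called higher, as were 4.42% of all genes. Its share of all counts was 0.0592, 0.131 and 0.0624% in aal1-pOE, against 0.0421, 0.0286 and 0.0298% in evc. These shares are on library totals, on which the median log2FC was 1.78 for the group and 0.80 over all genes.

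Spores form when the meiotic spindle pole body grows an extra outer plaque, from which the forespore membrane spreads round each nucleus. Spo15 is the scaffold of that plaque, Spo2 and Spo13 sit on it, and Spo7 is needed to begin the membrane. The level of spo7 was 62.0, 126 and 73.3 CPM in aal1-pOE, against 41.5, 15.9 and 18.5 CPM in evc. All aal1-pOE libraries lay above all evc libraries, with means of 87.1 ± 34.1 and 25.3 ± 14.1 CPM (SD, n = 3 each). The log2FC was 1.78 ± 0.41 (SE, adjusted p = 0.0364, edgeR), or 1.42 when aal1-pOE replicate 2 was left out (adjusted p = 0.0469). The call was lost without evc replicate 2 or 3 (adjusted p = 0.160 and 0.167) and in limma-voom (0.0606). With library totals it held (log2FC 2.58, adjusted p = 0.0419).

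The scaffold gene spo15 had 158, 238 and 154 CPM in aal1-pOE, against 110, 83.2 and 86.3 CPM in evc. The groups did not overlap, and the log2FC of 0.97 ± 0.25 (SE) missed the threshold by little (adjusted p = 0.0528). It was 0.76 without aal1-pOE replicate 2, where the gene was called (adjusted p = 0.0280), and it was called in 8 of 16 alternatives. Each of those 8 also called more genes higher over all genes than the 79 of the main test. The counts ran from 107 with a filter of 10 CPM to 1085 without aal1-pOE replicate 2 and evc replicate 1. The level of spo2 was 95.7, 72.4 and 104 CPM in aal1-pOE, against 113, 53.6 and 50.9 CPM in evc. Its highest library was evc replicate 1, and the groups overlapped (log2FC 0.32 ± 0.33 SE, adjusted p = 0.524). Per length spo2 was the most abundant spore gene, at 152 CPM per kb in aal1-pOE and 121 CPM per kb in evc.

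Spo3 is a component of the forespore membrane. Its gene had 10.7, 33.0 and 13.1 CPM in aal1-pOE, against 7.59, 3.81 and 2.62 CPM in evc. The groups did not overlap, and the log2FC of 2.01 ± 0.58 (SE, adjusted p = 0.0678) was 1.33 without aal1-pOE replicate 2 (adjusted p = 0.0784). Part of spo3, 22.2% of its length, overlapped SPNCRNA.186 on the same strand, which had 3 counts in aal1-pOE replicate 2 and 0 in the other libraries.

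The gene spo5 encodes a meiotic RNA-binding protein, and spo9 is annotated as a farnesyl pyrophosphate synthetase. The level of spo5 was 13.0, 31.3 and 13.6 CPM in aal1-pOE, against 12.8, 8.53 and 8.86 CPM in evc. Its groups did not overlap, though aal1-pOE replicate 1 and evc replicate 1 nearly met (log2FC 0.94 ± 0.43 SE, adjusted p = 0.193). The level of spo9 was 3.59, 12.7 and 4.73 CPM in aal1-pOE, against 4.05, 2.24 and 1.21 CPM in evc, with an overlap through evc replicate 1 (1.48 ± 0.68 SE, adjusted p = 0.190).

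The septins Spn5, Spn6 and Spn7 guide the forespore membrane into shape. Their genes had log2FC values of 1.74 ± 1.03, 1.62 ± 0.75 and -0.16 ± 0.24 (SE, adjusted p = 0.293, 0.196 and 0.680). The first 2 of these were high in aal1-pOE replicate 2 and spn7 was not. The secretory genes spo14 and spo20, and spo12, spo13 and spo6, had log2FC values from -0.75 in spo6 to 0.88 in spo13, none of them called. The kinase gene spo4, whose product acts with Spo6 in meiosis II, was counted 3 times in each aal1-pOE library and 5, 3 and 1 times in evc.

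Annotated genes on the opposite strand were common at these genes, some of them with few counts. Counting used strand, so a gene and its antisense partner were counted apart. Of the 49 genes, 18 (36.7%) had a counted gene on the other strand over at least 50% of their length, against 21.0% of 5111 coding genes. The partners were 11 non-coding RNAs and 7 coding genes. Per length the partner had more counts than the gene for 10 of the 18 in aal1-pOE (55.6%) and for 8 in evc (44.4%), against 33.1% and 35.4% of the 1074 coding genes with a partner. In all 6 libraries this held for 8 of the 18 (44.4%), against 25.1%. The 8 genes were dmc1, rec7, rec15, rec27, spn6, spo4, spo6 and spo12, of which dmc1, rec15, rec27 and spo4 were too low to be tested on their own strand.

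**Figure D4:**
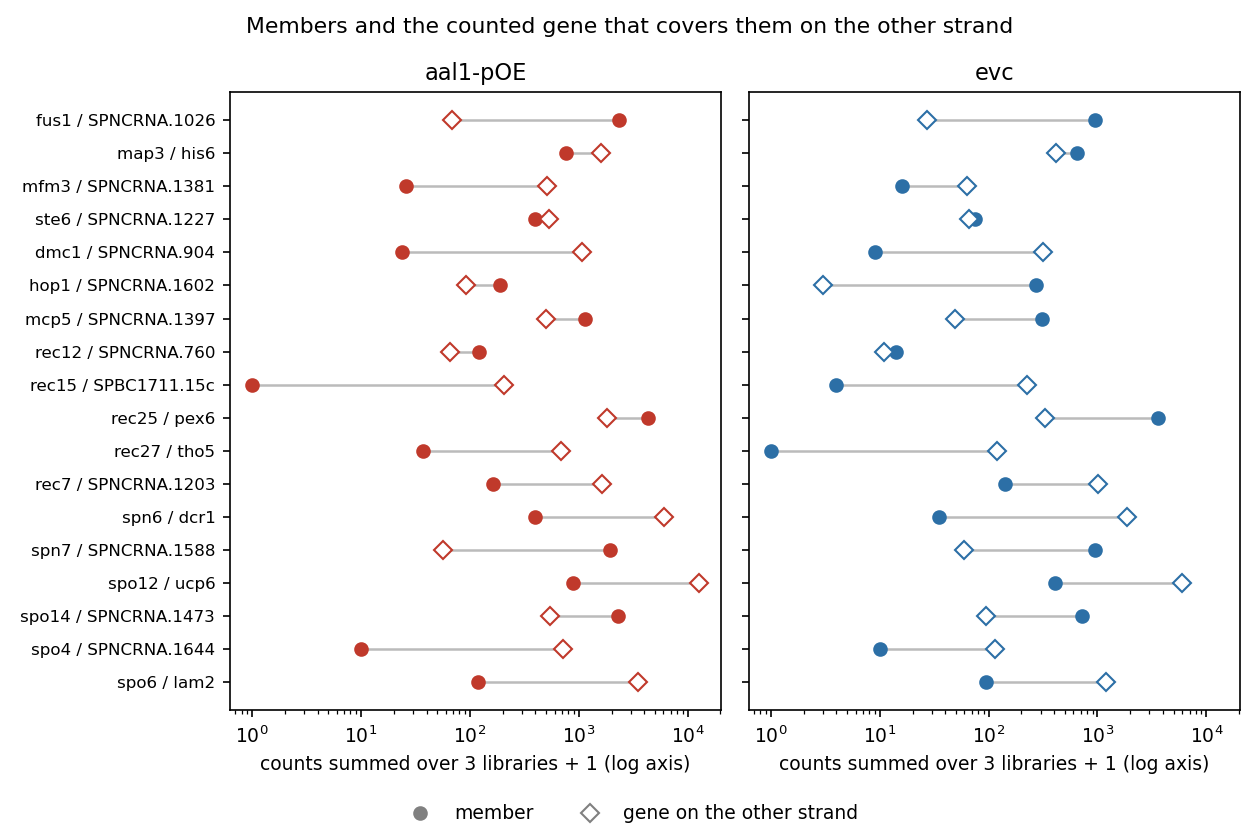
Counts of each of the 18 genes (filled circles) and of the counted gene that covers it on the other strand (open diamonds), summed over the 3 aal1-pOE libraries (left) and the 3 evc libraries (right), plus 1, on a log axis, not scaled for depth or length. For dmc1, rec15, rec27, spn6, spo4, spo6 and spo12 the diamond lies over 10-fold to the right of the circle in both panels.

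The recombinase gene dmc1 was counted 23 times in aal1-pOE and 8 times in evc, opposite the non-coding SPNCRNA.904 with 1070 and 317 counts. The partner of spo4, SPNCRNA.1644, had 52, 654 and 12 counts in aal1-pOE, against 35, 29 and 50 counts in evc, so that its high sum came from replicate 2. The partner of spo6 is lam2, with 908, 1985 and 630 counts in aal1-pOE, against 448, 368 and 382 counts in evc, and its log2FC was 0.25 ± 0.19 (SE, adjusted p = 0.401).

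Of the 17 partners tested, 1 rose and 0 fell in edgeR's test, where 1.31% of the 915 tested partners of all coding genes rose and 2.08% fell. It was SPNCRNA.1397, which covers all of mcp5 on the other strand. Its counts were 100, 310 and 93 in aal1-pOE, against 22, 14 and 12 in evc, or 10.6, 13.1 and 14.7 CPM against 3.71, 3.14 and 2.42 CPM. The groups were far apart and replicate 2 lay inside its own group, with a log2FC of 2.04 ± 0.43 (SE, adjusted p = 0.0248) and 2.02 without that library. The call was lost without aal1-pOE replicate 1 (adjusted p = 0.0639) and without evc replicate 2 or 3 (0.138 and 0.162). The level of mcp5 itself was 18.7, 35.7 and 19.9 CPM in aal1-pOE, against 26.3, 17.7 and 14.5 CPM in evc, with overlapping groups.

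For the called genes the partners gave these values. The partner of map3 is his6, a histidine biosynthesis gene that covers 99.8% of it, with 35.5, 46.7 and 24.6 CPM in aal1-pOE, against 27.5, 24.2 and 28.4 CPM in evc (log2FC 0.42 ± 0.28 SE, adjusted p = 0.344). The partner of hop1, SPNCRNA.1602, was counted 6, 84 and 2 times in aal1-pOE and 2, 0 and 0 times in evc, and was too low to be tested. The genes ste11 and spo7 had no counted partner over that share of their length. The part of antisense transcripts in the called changes was not tested.

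Other genes of the same pathways gave 0 calls in edgeR's quasi-likelihood test. Among 10 pheromone signalling genes, from the G protein gene gpa1 to the MAP kinase gene spk1, the median log2FC was 0.73, or 0.26 without aal1-pOE replicate 2. At an unadjusted p under 0.05, 3 were positive and 0 negative, against 14.6% and 12.5% of all genes. The likelihood ratio test called 3 of the 10 higher, DESeq2 called 2 and limma-voom 0, where these tests called 6.82, 6.75 and 0.326% of all genes higher. Without aal1-pOE replicate 2 the kinase gene shk1 was called higher, as were 4.42% of all genes. The level of spk1 was 33.0, 101 and 32.3 CPM in aal1-pOE, against 25.3, 13.9 and 23.3 CPM in evc, without overlap (log2FC 1.42 ± 0.47 SE, adjusted p = 0.0967). The M-specific protease gene sxa2, whose product degrades P-factor, had 4.44, 7.45 and 4.41 CPM in aal1-pOE, against 6.75, 11.0 and 7.65 CPM in evc. Its groups overlapped, and its log2FC of -0.62 ± 0.46 (SE, adjusted p = 0.382) was 0.19 with library totals. The 5 tested adhesion and fusion genes had a median of 0.34, and 1 of them had an unadjusted p under 0.05. Calls by the likelihood ratio test, DESeq2 and limma-voom were 0. Without aal1-pOE replicate 2 the adhesin gene map4 was called lower, as were 9.09% of all genes.

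Upstream, nutrient signals and the kinase Pat1 hold Ste11 and Mei2 in check. The 15 tested genes of nutrient signalling and Mei2 control included pat1, the stress kinase gene sty1, and the protein kinase A genes pka1 and cgs1. The meiotic RNA decay genes mmi1 and red1 were also among them. The list was not sorted by whether a gene restrains or promotes Ste11 and Mei2. Its median log2FC was -0.24, or -0.19 without aal1-pOE replicate 2 and 0.43 with library totals. At an unadjusted p under 0.05, 0 were positive and 1 negative, against 14.6% and 12.5% of all genes, and the likelihood ratio test, DESeq2 and limma-voom called 0. The negative gene was cgs2, with 503, 159 and 528 CPM in aal1-pOE, against 666, 960 and 873 CPM in evc. Its groups did not overlap (log2FC -1.07 ± 0.44 SE, adjusted p = 0.160). The level of mmi1 was 87.0, 83.7 and 80.1 CPM in aal1-pOE, against 110, 104 and 91.4 CPM in evc. The groups of mmi1 did not overlap, though its log2FC was small (-0.28 ± 0.19 SE, adjusted p = 0.344).

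The 6 tested partners in meiotic chromosome organisation had a median of -0.077, with 1 positive and 1 negative at an unadjusted p under 0.05. Over all genes 14.6% were positive and 12.5% negative at that limit. The positive gene, kms1, encodes a nuclear envelope protein of the spindle pole body. It had 22.6, 51.7 and 19.1 CPM in aal1-pOE, against 12.3, 6.51 and 10.9 CPM in evc, without overlap (log2FC 1.65 ± 0.45 SE, adjusted p = 0.0589). The negative gene was ssm4, with 32.0, 36.8 and 44.9 CPM in aal1-pOE, against 61.2, 53.9 and 51.7 CPM in evc. Its groups did not overlap either (log2FC -0.55 ± 0.22 SE, adjusted p = 0.148). The likelihood ratio test and DESeq2 each called 1 gene of this list higher and limma-voom 0, where they called 6.82, 6.75 and 0.326% of all genes higher. The 11 tested genes of the spore wall and membrane had a median of 0.23, from -0.81 to 0.94, with 1 positive and 0 negative at an unadjusted p under 0.05 and 0 calls by the likelihood ratio test, DESeq2 or limma-voom.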

How the data were processed

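The study's methods and the submitters' processing notes state that total RNA was depleted of rRNA, made into strand-specific libraries with molecular indices and sequenced as paired 50 bp reads. The authors aligned reads with STAR 2.6.1a to the PomBase genome, for which the sources used here name no build, then made per-gene counts with HTSeq 0.12.3, which was set to reverse-strand reads. Whether molecular duplicates were collapsed is not given either. The deposited values were whole-number counts for 6952 genes in 6 libraries, not normalised. All library columns were used. HTSeq leaves out reads with several alignments, so counts of near-identical genes are uncertain.

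The counts were tested with edgeR 4.0.16 in R 4.3.3 (a minimum of 1 CPM, exceeded in 3 or more libraries, which left 5823 genes; TMM; quasi-likelihood F test with strain as the only factor; Benjamini-Hochberg adjustment; call at an adjusted p of at most 0.05). Adjusted p-values are from this test unless another is named. The SE of a log2FC is its absolute value divided by the square root of F. The fit was tested on simulated data. Alternatives were DESeq2 size factors, library totals, no filter, a filter of 10 CPM, the likelihood ratio test, DESeq2 1.42.0, limma-voom (limma 3.58.1), a replicate block, leaving out each library in turn, and leaving out aal1-pOE replicate 2 with evc replicate 1. A fit without edgeR's legacy setting was added after seeing the data. The libraries are labelled as biological replicates.

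The 49 genes, their roles, the pathway lists and the motifs were chosen with earlier results of these data known. The rule for naming genes took every pheromone and entry gene and, for the recombination and the spore genes, those called, the 5 with the smallest p and the 2 with the highest mean CPM. Other genes named with values, and the antisense comparison, were chosen after the values were seen. Names, positions and sequences came from the RefSeq annotation of ASM294v3, in which 48 of the 49 genes matched by name and mcp5 by a synonym. Annotated lengths include introns.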

Additional observations from a re-analysis of the deposited data

How the results depend on the processing

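Among the 49 genes, the count that rose was 1 in the main test, 2 with library totals, 2 with a filter of 10 CPM, 5 with the likelihood ratio test, 6 with DESeq2, 0 with limma-voom, 3 with a replicate block, and 11 with aal1-pOE replicate 2 and evc replicate 1 both left out. It ranged from 0 to 4 when single libraries were left out. The count that fell was 3 in the main test, 0 with library totals, and 0 to 3 when single libraries were left out. Over all genes, the count that rose was 79 in the main test, 517 with library totals, 397 with the likelihood ratio test, 393 with DESeq2, 19 with limma-voom, 247 with a replicate block, 1085 without those 2 libraries together, and 1 to 252 with single libraries left out. The count that fell was 270 in the main test, 154 with library totals, 472 with the likelihood ratio test, 512 with DESeq2, 1131 without the 2 libraries together, and 81 to 518 with single libraries left out. The cause was not tested. DESeq2 size factors, no filter and the fit without the legacy setting gave the calls of the main test for the 4 called genes, spo7, ste11, hop1 and map3.

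Log2 fold changes were followed through the alternatives for some genes only. Among these, those that changed sign belonged to genes that were not called in the main test. With library totals they were 0.40 for mfm1, 0.43 for mei3, 0.26 for mei4, 0.47 for rep1, 0.66 for dhc1 and 0.19 for sxa2. The genes spn7 and spo12, at -0.16 and -0.32 on the TMM scale, were not followed. Divided by library totals alone, spn7 had 60.86, 73.83 and 71.61 CPM in aal1-pOE, against 45.86, 50.17 and 50.9 CPM in evc, without overlap. For spo12 the levels were 20.55, 43.37 and 21.7 CPM in aal1-pOE, against 19.78, 23.63 and 20.33 CPM in evc, with overlap. With DESeq2 size factors and in the DESeq2 test fus1 came to -0.0038 and -0.0025. With a replicate block ste6 came to -0.0055. With single libraries left out, the ranges were -0.21 to 0.52 for fus1, -0.18 to 0.47 for mam1, -0.88 to 0.99 for map1, -0.29 to 1.56 for ste4, -0.88 to 0.95 for ste6, -0.0083 to 0.63 for mcp5, -0.75 to 0.26 for mei4 and -0.31 to 0.37 for rep1. With aal1-pOE replicate 2 and evc replicate 1 both left out, the values were -0.19 for mam1, -0.96 for map1, -0.26 for map2, -0.65 for ste4, -1.10 for ste6, 0.43 for mei4 and 0.71 for rep1. Of these rep1 was called higher in that setting (adjusted p = 0.00494, edgeR). Whether replicate numbers pair the libraries could not be told from 3 libraries a group. Deviations from the group means correlated at 0.03, 0.015 and 0.004 between libraries of the same number. Of the 3 aal1-pOE libraries, 2 correlated best with the evc library of their own number. Over all genes the replicate block called 247 higher and 383 lower, against 79 and 270 in the main test. The replicate block kept the calls of the 4 called genes and added spo3 and spo15.

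Depth limited mfm3, dmc1, rec15, rec27 and spo4, with at most 36 counts over a group, and 13 tested genes had at least 1 library under 10 counts: mfm1, mfm2, mam2, meu13, rec10, rec11, rec12, rec14, rec24, spn5, spn6, spo9 and spo13. With 3 libraries a side, 1 of them apart from the rest, a gene that was not called cannot be said to be unchanged.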

Other observations

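Another list took, by name alone, 128 genes with meu, mug, mcp or mde names. Many such names were given for a rise during meiosis or for a meiotic defect, but this was not checked gene by gene. The list includes mcp60 and mde1, the latter annotated as a dehydratase, whose names may have another origin. It shares mcp7 with the list of meiotic chromosome organisation, and mde10 and meu10 with that of the spore wall and membrane. Of the 128 genes, 106 were tested. In edgeR's quasi-likelihood test 0 were called in either direction. At an unadjusted p under 0.05, 19 were positive and 10 negative, against 14.6% and 12.5% of all genes. The likelihood ratio test called 7 higher and 4 lower, DESeq2 called 7 higher and 6 lower, and limma-voom called 0 higher and 1 lower. Over all genes these tests called 6.82% and 8.11%, 6.75% and 8.8%, and 0.326% and 4.04%. Their median log2 fold change was 0.196, and -0.006 without aal1-pOE replicate 2, when 5 were called higher and 7 lower, against 4.42% and 9.09% of all genes. The genes closest to the threshold, chosen after their values were seen, took both directions. The level of meu27 was 4.12, 3.56 and 10.7 CPM in aal1-pOE, against 21.3, 20.2 and 23.5 CPM in evc, without overlap (log2 fold change -1.85 ± 0.47 SE, adjusted p = 0.0515). The amino-acid permease gene meu22 had 22.4, 48.4 and 22.2 CPM in aal1-pOE, against 13.5, 9.20 and 9.86 CPM in evc, also without overlap (1.52 ± 0.39 SE, adjusted p = 0.0517). The level of mug150 was 102, 38.1 and 106 CPM in aal1-pOE, against 190, 230.4 and 221 CPM in evc (-1.38 ± 0.36 SE, adjusted p = 0.0568). That of mcp3 was 9.30, 24.6 and 9.93 CPM in aal1-pOE, against 3.04, 1.80 and 5.03 CPM in evc (2.15 ± 0.57 SE, adjusted p = 0.0588). The groups of neither gene overlapped.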
